A study of Mus musculus with 7 samples.

Results

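The Hedgehog pathway genes examined here were 9 genes taken by symbol from the table of normalized counts, of 19257 genes in all: the ligand Shh, the ligand antagonist Hhip, the receptor Ptch1, the signal transducer Smo, the coreceptors Boc and Cdon, and the transcription factors Gli1, Gli2 and Gli3. All 9 had a row in the table. They were measured by bulk RNA-Seq in endpoint mouse brain tumors made by in utero electroporation of progenitors lining the lateral ventricles, with 1 library per brain. The 3 tumors of the 3xCR group carried a CRISPR-Cas9 construct with guides against tumor suppressor genes, among them Trp53 and Nf1, and the 4 tumors of the GPC6 group carried the same construct and, in addition, overexpressed GPC6 (a cell-surface glypican) from a piggyBac transposon. Both groups therefore carry the same guides, and no tumor-free brain was among the libraries. Tissue was dissected under fluorescence, so each library holds RNA of tumor cells and of the neurons, glia and immune cells around them, and the age, sex and strain of the animal behind each library were not given in the labels.

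Hedgehog ligands are secreted proteins that bind Ptch1. Without ligand Ptch1 holds Smo inactive, and with ligand Smo enters the primary cilium and shifts the Gli proteins from repressor to activator forms. Gli1, Ptch1 and Hhip are themselves targets of the pathway, so their RNA serves as a readout of it, whereas Smo, Gli2, Gli3, Boc and Cdon are part of the machinery that receives the signal. In the mature brain Shh is made mainly by neurons, and Gli1 marks responding astrocytes and ventricular stem cells. Glypicans can bind Hedgehog ligands or their receptor, and the comparison asks whether the RNA of the pathway differed in tumors with added GPC6.

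Of the RefSeq promoter windows of GRCm38.p6, which run from 250 bases before to 50 after a start site, 6 of the 9 genes had one (Hhip, Ptch1, Smo, Cdon, Gli2 and Gli3). The consensus that Gli factors bind, GACCACCCA, was searched on both strands and was in 0 of the 6 windows and in 0.253% of all 32851 windows. The GC box, GGGCGG on either strand, was in 4 of the 6 and in 35.7% of all windows. The stretches of 250 bases upstream of the RefSeq start sites of Ptch1 and Hhip are shown because these are the target genes of the pathway among the 6. Capitals mark the GC boxes. The first lies at chr13:63565736-63565985 and the second at chr8:80058009-80058258, both on the minus strand and outside annotated exons, and 78.4% and 76.0% of their bases were G or C. The Ptch1 stretch lies inside the annotated gene (63508328 to 63573598), so it precedes an internal start site. The Hhip stretch lies just outside its gene.
Ptch1: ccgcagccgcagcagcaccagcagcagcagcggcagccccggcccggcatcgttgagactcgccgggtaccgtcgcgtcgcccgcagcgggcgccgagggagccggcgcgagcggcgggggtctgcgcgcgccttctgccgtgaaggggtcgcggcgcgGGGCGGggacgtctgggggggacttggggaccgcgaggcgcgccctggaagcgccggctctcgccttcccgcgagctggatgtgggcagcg
Hhip: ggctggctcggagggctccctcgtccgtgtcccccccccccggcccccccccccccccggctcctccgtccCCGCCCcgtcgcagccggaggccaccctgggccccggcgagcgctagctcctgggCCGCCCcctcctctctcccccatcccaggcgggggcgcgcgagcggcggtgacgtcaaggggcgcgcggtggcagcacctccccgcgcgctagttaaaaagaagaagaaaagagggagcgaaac
With 1 and 2 GC boxes, these stretches are shown as sequence only. A match or its absence in this window says nothing of sites further away.

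Reads on genes numbered 7197692 to 18879762 per library, which did not differ between the groups by a two-sided exact permutation test (p = 0.457; with 3 against 4 libraries such a test cannot go below 0.0571). Values are normalized counts, meaning reads after division by each library's size factor, and they are listed by tumor in the order of replicates 2, 3 and 4 for 3xCR and 1, 2, 3 and 4 for GPC6. A count of 0 allows up to 1.64 to 4.64 normalized counts depending on the library, which covers counting error only. Gpc6, the overexpressed gene, was at 217, 226 and 126 in the 3xCR and at 675, 263, 3434 and 5084 in the GPC6 tumors (log2 fold change 2.85, standard error 0.98, limma adjusted p = 0.730), so the Gpc6 of the library labelled GPC6 replicate 2 was close to that of 3xCR tumors. GPC6 replicate 1 stood apart from the other libraries on the first principal component, with a score of 139.9 where the others had -98.0 to 43.5, and it had the lowest proliferation markers and the highest neuronal markers. Values without these libraries are given for each gene whose direction turned on them. Against the label brain, each of 10 neuronal, 8 astrocyte and 6 oligodendrocyte markers was detected in at least 1 library.

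For none of the 9 Hedgehog genes did limma call a difference between GPC6 and 3xCR tumors. The test was two-sided, on log2(normalized count + 1), and was adjusted by Benjamini-Hochberg over the 14782 genes whose normalized counts averaged 10 or more. At an adjusted p under 0.05 there were 0 of the 9, beside 0.00% of all genes tested, and at an unadjusted p under 0.05 there were again 0 of the 9, beside 4.66% of all genes. On the reads recovered from the normalized counts, edgeR's quasi-likelihood test and voom also placed 0 of the 9 below either threshold, and DESeq2 placed 1, Shh, below the unadjusted one. DESeq2 gave no adjusted p to 7 of the 9, Shh among them, and 0 of the 2 that had one, Ptch1 and Smo, passed. Over all genes the tests called 0 (limma), 0 (edgeR), 0 (voom) and 9 (DESeq2) at an adjusted p under 0.05 and 689, 991, 499 and 1793 at an unadjusted p under 0.05. By mean log2 value 5 of the 9 were higher and 4 lower in GPC6 tumors, with a median log2 fold change of 0.18, where the median over all genes tested was -0.019 and 48.3% of them were higher. Without GPC6 replicate 1 the median of the 9 was -0.079 with 3 higher, and without 3xCR replicate 4 it was -0.026 with 4 higher, so its direction rested on single libraries. For none of the 9 did the groups separate without overlap, as they did for 2.80% of all genes with higher and 3.52% with lower values in GPC6 tumors.

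**Figure D1:**
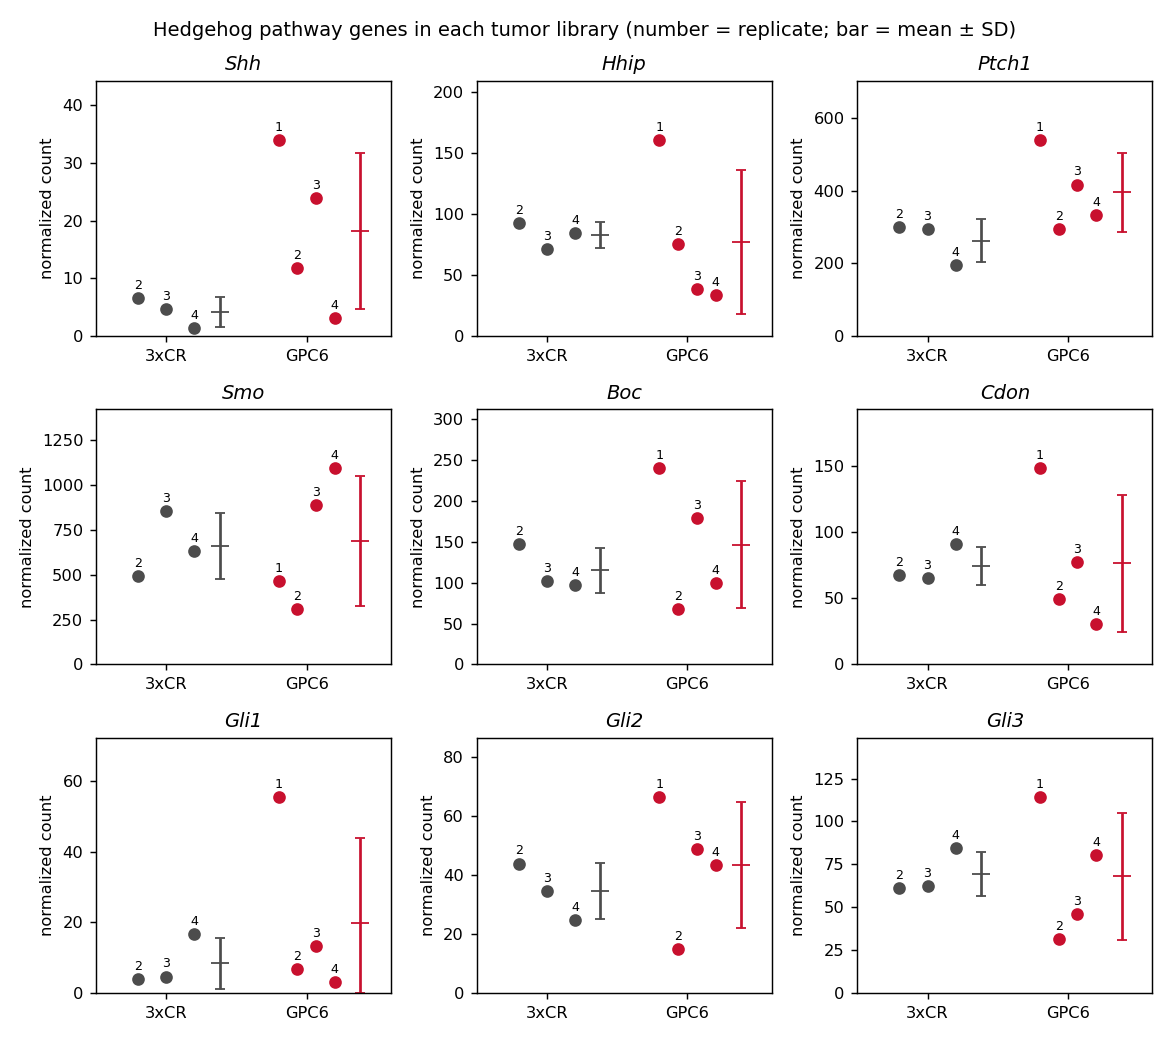
Normalized count (vertical axis, from 0) of each of the 9 Hedgehog genes in the 3 libraries of 3xCR and the 4 of GPC6 tumors; numbers beside the points are replicates and the bars give the mean ± SD, with the lower end drawn no further than 0. The groups overlap in every panel, and GPC6 replicate 1, which stood apart over all genes as well, holds the highest point in 8 of the 9.

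Shh had the largest log2 fold change of the 9, and 3 of the 4 GPC6 tumors lay above all 3xCR tumors. Shh, the main Hedgehog ligand of the brain, lies on chromosome 5 of GRCm38 from 28456815 to 28467256. Normalized counts of 6.58, 4.65 and 1.38 in the 3xCR tumors gave a mean of 4.20 ± 2.63 (SD, n = 3). Those of 34.0, 11.9, 24.0 and 3.09 in the GPC6 tumors gave 18.2 ± 13.6 (SD, n = 4). GPC6 replicates 1 and 3 were high, and GPC6 replicate 4 was lower than 3xCR replicates 2 and 3. The reads behind these values were few, 12, 5 and 1 in the 3xCR and 22, 12, 27 and 3 in the GPC6 libraries, and Shh passed the filter on low values only through the GPC6 group. The log2 fold change was 1.65 (standard error 0.91, 95% interval -0.46 to 3.75, limma adjusted p = 0.730), with an exact permutation p of 0.171 (two-sided), so neither test called the difference. Leaving out GPC6 replicate 1 gave 1.23, and leaving out GPC6 replicate 4 gave 2.26 (unadjusted p under 0.05, limma adjusted p = 0.532). With library weights in limma Shh passed adjustment (log2 fold change 1.92, adjusted p = 0.0403), in a fit that called 1962 of all genes.

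Neuronal markers were also highest in the tumors with the most Shh, though not in step with it across all libraries. The sum of the 10 neuronal markers was 6017, 2904 and 2366 normalized counts in the 3xCR tumors and 60810, 2557, 32510 and 8475 in the GPC6 tumors, and all 10 markers had a higher mean in GPC6 tumors and none was at 0 in all libraries. The 2 libraries with the highest sums, GPC6 replicates 1 and 3, were those with the highest Shh. GPC6 replicate 4 had the next highest sum with a Shh below 3xCR replicates 2 and 3, and GPC6 replicate 2 had the next highest Shh with a sum below 3xCR replicates 2 and 3. Hypothalamic neuron markers were at 16.7 to 30.7 normalized counts in the 3xCR libraries and 21.6 to 60.3 in GPC6 replicates 2, 3 and 4, against 1169 in GPC6 replicate 1, where Avp and Oxt had 541 and 428. With the neuronal list score as a covariate in limma the log2 fold change of Shh was 0.53 (adjusted p = 1.000). In bulk tissue fewer cells of a type and less RNA per cell cannot be told apart.

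Hhip, which binds Hedgehog ligands and keeps them from their receptor, had a lower mean log2 value in GPC6 tumors, unlike Shh. Its relation to Shh across libraries was not tested. Hhip lies on chromosome 8 from 79965851 to 80058006, and its normalized counts were 92.6, 71.6 and 84.3 in the 3xCR tumors. In the GPC6 tumors they were 160.7, 75.1, 38.1 and 34.0. GPC6 replicate 1 was thus above and GPC6 replicates 3 and 4 below all 3xCR tumors, and the spread was wide only in the GPC6 group, with a coefficient of variation of 76.4% there and of 12.8% among 3xCR tumors. The means were 82.8 ± 10.6 (SD, n = 3) and 77.0 ± 58.8 (SD, n = 4), with a log2 fold change of -0.38 (standard error 0.56, 95% interval -1.67 to 0.91, limma adjusted p = 0.849). Without GPC6 replicates 1 and 2 together the log2 fold change was -1.17 (unadjusted p under 0.05, limma adjusted p = 0.767).

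**Figure D2:**
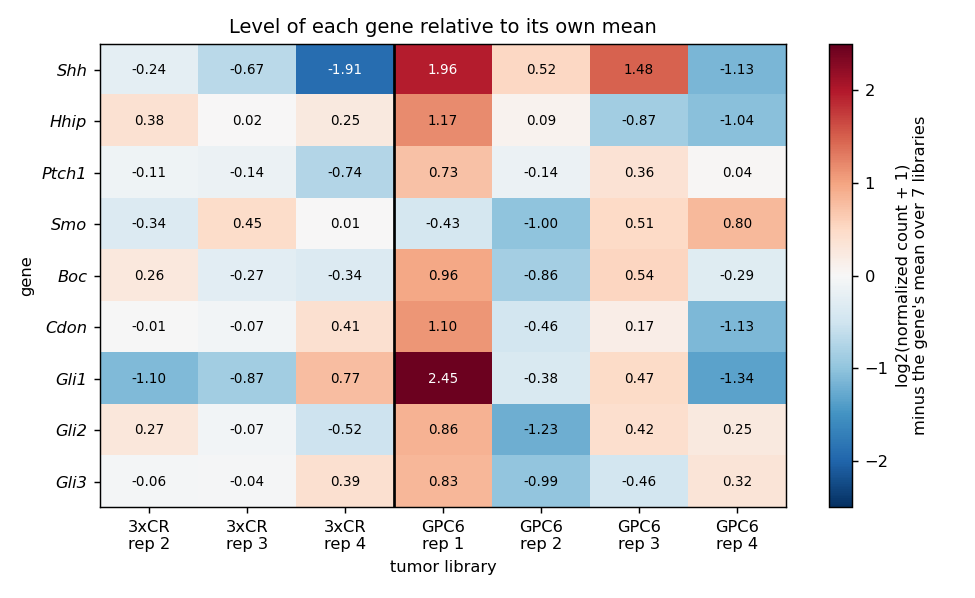
Each gene's log2(normalized count + 1) minus its mean over the 7 libraries (colour and number), for the 9 Hedgehog genes (rows) in the 3xCR and GPC6 libraries (columns, divided by the black line). GPC6 replicate 1 is above the mean in 8 genes, from 0.73 in Ptch1 to 2.45 in Gli1, whereas Smo is at -0.43 there.

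Ptch1, the Hedgehog receptor and the most abundant of the 3 members that are targets, was higher in 3 of the 4 GPC6 tumors than in any 3xCR tumor. It lies on chromosome 13 from 63508328 to 63573598. Its normalized counts were 300.4, 295 and 195 in the 3xCR tumors and 541, 295, 418 and 333 in the GPC6 tumors. These were GPC6 replicates 1, 3 and 4, while GPC6 replicate 2 had the level of 3xCR replicates 2 and 3. The means were 263 ± 59.5 (SD, n = 3) and 397 ± 109 (SD, n = 4), with a log2 fold change of 0.58 (standard error 0.29, 95% interval -0.094 to 1.25, limma adjusted p = 0.730; exact permutation p = 0.114). Leaving out 1 library at a time gave log2 fold changes of 0.38 to 0.71 with adjusted p of at least 0.525, and with the neuronal score as a covariate it was 0.12 (adjusted p = 1.000).

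Smo, the membrane protein that Ptch1 holds in check, had the highest level per length of the 9. It lies on chromosome 6 from 29735503 to 29761365. Its normalized counts were 493, 856 and 629.8 in the 3xCR tumors and 462, 311, 887 and 1092 in the GPC6 tumors, so the GPC6 tumors lay on both sides of the 3xCR tumors. It was the 1 member whose highest value was not in GPC6 replicate 1. The log2 fold change was -0.073 (standard error 0.45, 95% interval -1.12 to 0.98, limma adjusted p = 0.971), and its sign rested on these libraries: it was 0.061 without GPC6 replicate 1, 0.25 without GPC6 replicate 2 and 0.61 without both (limma adjusted p = 0.988, 0.811 and 0.767).

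The coreceptors Boc and Cdon, which hold the ligand at the cell surface beside Ptch1, were not called either. Boc on chromosome 16 (44485049 to 44558897) had 147, 101 and 96.7 normalized counts in the 3xCR tumors and 239.6, 67.2, 178 and 99.8 in the GPC6 tumors. Cdon on chromosome 9 (35421128 to 35507652) had 68.0, 65.1 and 91.2 in the same 3xCR libraries and 148, 49.4, 77.2 and 30.9 in the GPC6 libraries. In both genes GPC6 replicate 1 was highest and at least 1 other GPC6 library lay below all 3xCR tumors. The log2 fold changes were 0.20 (95% interval -0.88 to 1.29, limma adjusted p = 0.905) for Boc and -0.19 (95% interval -1.42 to 1.05, limma adjusted p = 0.927) for Cdon. Without GPC6 replicate 1 that of Boc was -0.088 (limma adjusted p = 0.976). Gas1 and Lrp2, further coreceptors, had log2 fold changes of -0.25 and -0.58 (limma adjusted p = 0.878 and 0.855).

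Gli1, the transcription factor whose own RNA follows pathway activity, was high in 1 tumor and low in the others. It lies on chromosome 10 from 127329882 to 127341974. Its normalized counts were 3.84, 4.65 and 16.6 in the 3xCR tumors and 55.6, 6.92, 13.3 and 3.09 in the GPC6 tumors, from 7, 5 and 12 reads in the 3xCR and 36, 7, 15 and 3 reads in the GPC6 libraries. Outside GPC6 replicate 1 the highest value belonged to 3xCR replicate 4, which had the lowest Shh and the lowest Ptch1. The log2 fold change was 0.70 (standard error 1.00, 95% interval -1.62 to 3.02, limma adjusted p = 0.846), and without GPC6 replicate 1 it was -0.018 (adjusted p = 1.000). Gli1 too passed the filter only through the GPC6 group, whose mean was 19.7 ± 24.3 (SD, n = 4) against 8.35 ± 7.13 (SD, n = 3).

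Gli2, the main activator of the pathway, and Gli3, its main repressor, differed less between the groups than within the GPC6 group. Gli2 on chromosome 1 (118834132 to 119053619) had 43.8, 34.4 and 24.9 normalized counts in the 3xCR tumors and 66.5, 14.8, 48.8 and 43.2 in the GPC6 tumors. Gli3 on chromosome 13 (15463235 to 15730026) had 61.4, 62.3 and 84.3 in the 3xCR and 114, 31.6, 46.1 and 80.2 in the GPC6 libraries. Both were highest in GPC6 replicate 1 and lowest in GPC6 replicate 2. Their log2 fold changes were 0.18 (95% interval -1.13 to 1.49, limma adjusted p = 0.933) and -0.18 (95% interval -1.30 to 0.94, limma adjusted p = 0.922). Neither sign held throughout, since Gli2 was at -0.079 without GPC6 replicate 1 and Gli3 at 0.13 without GPC6 replicate 2 (limma adjusted p = 0.986 and 0.918).

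**Figure D3:**
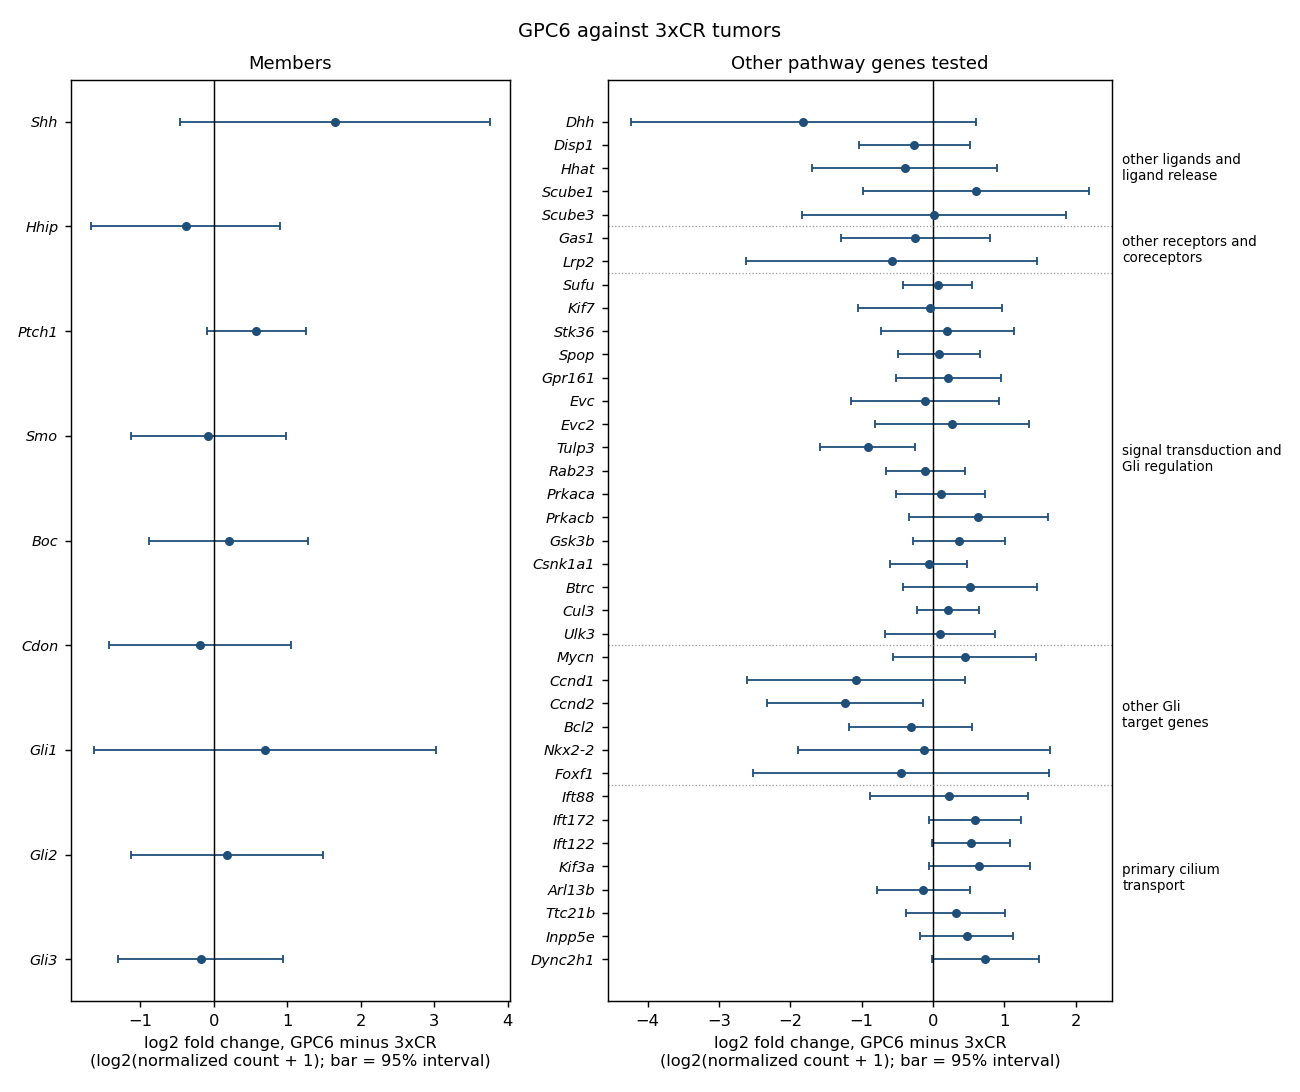
Log2 fold change (GPC6 minus 3xCR, horizontal axis, on the log2(normalized count + 1) scale) with its 95% interval from limma for the 9 Hedgehog genes (left) and the 37 other pathway genes tested (right, in 5 lists divided by dotted lines). The intervals of all 9 span 0, and on the right only those of Tulp3 and Ccnd2 do not.

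Within the GPC6 group the same library was extreme in most members. GPC6 replicate 1 had the highest value of the 7 libraries in 8 of the 9 genes, GPC6 replicate 2 the lowest in 4, GPC6 replicate 4 the lowest in 3 and 3xCR replicate 4 the lowest in 2. The shares of all genes with their extremes in these libraries were not counted. GPC6 replicate 1 also stood apart over all genes on the first principal component, so these counts cannot be read as particular to the Hedgehog genes. The mean of the 9 centred log2 values was 1.07 in GPC6 replicate 1, 0.29 in GPC6 replicate 3, and -0.50 and -0.39 in GPC6 replicates 2 and 4. The 3xCR tumors lay within -0.19 and -0.10. In the same GPC6 replicate 1 the proliferation markers summed to 479 normalized counts, where the other libraries had 3669 to 10301, and the choroid plexus markers to 12585, where the others had 34.0 to 3708. The astrocyte markers summed to 64076 there against at most 60902 elsewhere, and among them Slc1a2, Slc1a3, Gja1 and Aldoc were highest in this library while Gfap, Aqp4, Aldh1l1 and S100b were not. The summed microglia and macrophage markers were lower in every GPC6 than in every 3xCR tumor, at 5614 to 7802 against 7872 to 11201. The exact permutation test of the list score gave p = 0.0571, the lowest that this test can reach. Of the 6 single markers 2, Aif1 and Tmem119, were lower without overlap, beside 3.52% of all genes, and the other 4 overlapped. The part of these other cells in the Hedgehog values was not tested.

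Levels of different genes were compared per kilobase of annotated exon, as the mean normalized count over the 7 libraries. Smo had 120.2 ± 49.5 (SD, n = 7) per kilobase and lay above every other member in all 7 libraries. Boc followed with 29.8 ± 13.4 and Ptch1 with 23.9 ± 7.79, in an order that held in 5 of the 7 libraries. Ptch1 was above Cdon in 7 of 7. Below them Cdon (9.82 ± 4.85), Hhip (8.76 ± 4.64), Gli3 (7.16 ± 2.84), Gli2 (5.75 ± 2.45), Shh (4.29 ± 4.31) and Gli1 (2.97 ± 3.74) lay close, and neighbours among these 6 changed places in at least 1 library. Shh and Gli1 were the lowest in 3xCR tumors, at 1.48 and 1.67 per kilobase, whereas in GPC6 tumors Shh (6.40) was close to Gli2 (6.31) and Gli1 (3.95) was lowest.

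Relations between members were examined over the 7 libraries for 6 pairs, on log2(normalized count + 1), with exact permutation tests. Both groups were pooled and permuted together, so any difference between the groups enters r and its p. Shh and Ptch1 gave a Pearson r of 0.88 (exact permutation p = 0.00774, Benjamini-Hochberg adjusted p = 0.0464) and a Spearman rho of 0.75 (exact permutation p = 0.0663, adjusted p = 0.199). Shh had only 1 to 27 reads per library and passed the filter only through the GPC6 group. Without GPC6 replicates 1 and 3, the libraries farthest from the median of Shh, r was 0.61 over 5 libraries (exact permutation p = 0.342), so the relation rested on them, and these were also the libraries richest in neuronal markers. For Shh and Gli1 r was 0.55 and rho 0.43 (exact permutation p = 0.199 and 0.354, adjusted p = 0.298 and 0.530), and r without the same 2 libraries was -0.43. For Ptch1 and Gli1 r was 0.45 and rho 0.14 (exact permutation p = 0.2996 and 0.783, adjusted p = 0.3595 and 0.783), and for Gli1 and Hhip r was 0.59 and rho 0.54 (exact permutation p = 0.156 and 0.236, adjusted p = 0.298 and 0.471). Without GPC6 replicate 1 and 3xCR replicate 4 these r were 0.69 and -0.23. The level of Gpc6 gave r of 0.58 and rho of 0.75 with Ptch1 (exact permutation p = 0.187 and 0.0663, adjusted p = 0.298 and 0.199) and r of -0.057 and rho of -0.18 with Gli1 (exact permutation p = 0.917 and 0.713, adjusted p = 0.917 and 0.783). Without GPC6 replicates 3 and 4, which have the most Gpc6, these r were 0.99 and 0.59 (exact permutation p = 0.0417 and 0.275, adjusted p = 0.250 and 0.513). The 2 target genes with the clearest role as readouts, Ptch1 and Gli1, thus showed no relation to Gpc6 or to each other that passed adjustment. Gli1 had only 3 to 36 reads per library and also passed the filter only through the GPC6 group, so the tests with Gli1 cannot settle whether a relation exists.

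**Figure D4:**
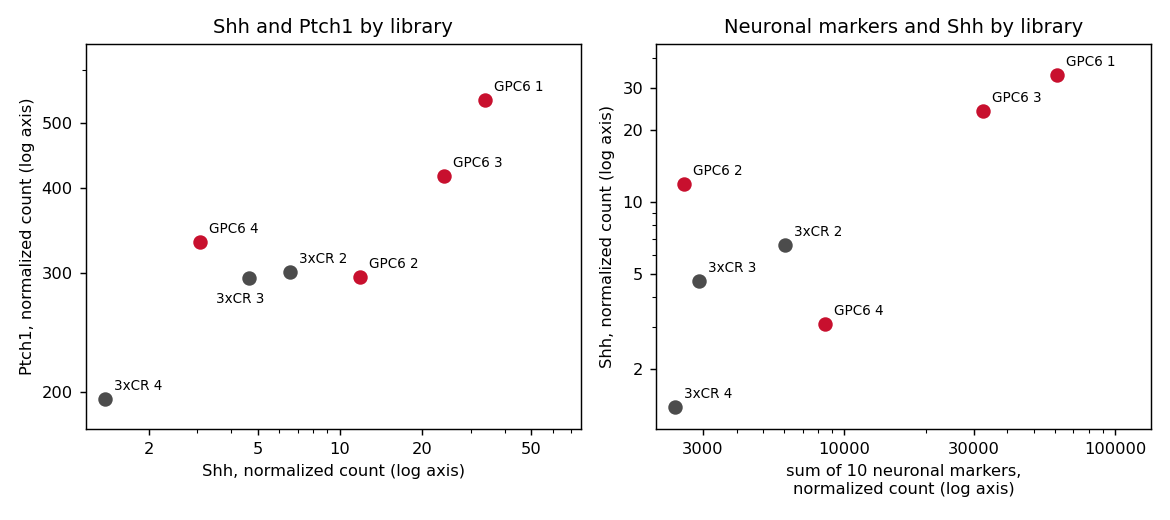
Left, Ptch1 against Shh, and right, Shh against the sum of 10 neuronal markers, as normalized counts on log axes, with 1 point per library (3xCR grey, GPC6 red). GPC6 replicates 1 and 3 lie at the upper right of both panels, and GPC6 replicate 2 has 11.9 of Shh with a neuronal sum of 2557.

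The genes nearest to a member were those with the smallest root mean square difference of centred log2 values over the 7 libraries. For Shh they were Dmrtc1a (0.26), Nrxn3 (0.28), a neurexin of the presynaptic membrane, and Scn3b (0.29), a subunit of neuronal sodium channels. For Ptch1 they were Atpaf1 (0.085), an assembly factor of the mitochondrial ATP synthase, Foxj3 (0.089), a forkhead transcription factor, and Wdr35 (0.090), a part of the transport machinery of cilia. For Gli1 they were Nts (0.42), the precursor of neurotensin, Lhx6 (0.42), a transcription factor of interneurons, and Efnb2 (0.47), an ephrin. The Hedgehog genes themselves ranked further down. The nearest to Gli1 was Cdon (0.75, rank 175 among all genes tested). Boc was the nearest to Ptch1 (0.38, rank 1950), and Ptch1 the nearest to Shh (0.94, rank 1711). With 7 libraries such likeness is a description of these tumors.

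The other genes of the pathway were taken from 5 lists of 41 genes, of which 37 were tested. At an adjusted p under 0.05 there were 0 of the 37, and at an unadjusted p under 0.05 there were 2, both lower in GPC6 tumors, beside 4.66% of all genes. Their median log2 fold change was 0.078.

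Among the other ligands and the proteins that release or carry them, 2 of the 5 tested had a higher and 3 a lower mean log2 value, and 0 passed an unadjusted p of 0.05. Dhh, a further ligand, had 43.8, 115 and 56.6 normalized counts in the 3xCR tumors and 7.73, 119.5, 23.1 and 4.12 in the GPC6 tumors. The GPC6 tumors covered a wider range than the 3xCR tumors on both sides (log2 fold change -1.82, standard error 1.05, limma adjusted p = 0.730). Scube1, which had the highest mean normalized count over the 7 libraries (without correction for length) and the largest increase in this list, is a member of a family of secreted proteins that help to release the ligand. Its log2 fold change was 0.60 (limma adjusted p = 0.808). The normalized counts were 63.6, 68.8 and 84.3 in the 3xCR and 233, 54.3, 257 and 43.2 in the GPC6 tumors. GPC6 replicates 1 and 3 thus lay above and GPC6 replicates 2 and 4 below all 3xCR tumors. Ihh and Scube2 were under the filter, with means of at most 1.99 and 4.54 normalized counts in either group.

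Tulp3 had the lowest unadjusted p of the genes that carry or dampen the signal inside the cell, and it was not called after adjustment. Its protein brings membrane receptors such as Gpr161 into the cilium, where they restrain the pathway. Its normalized counts were 394, 495 and 823 in the 3xCR tumors and 243, 335, 286 and 292 in the GPC6 tumors, so that every GPC6 tumor lay below every 3xCR tumor. The log2 fold change was -0.92 (standard error 0.29, limma adjusted p = 0.730; exact permutation p = 0.0571). Tulp3 was the 1 gene of the 37 with lower values without overlap, beside 3.52% of all genes. This count is near that share, so it cannot be read as particular to the pathway. Of the 16 genes in this list 11 had a higher and 5 a lower mean log2 value, with a median log2 fold change of 0.10. Sufu, which holds the Gli proteins in the cytoplasm, had 289.6 ± 16.7 (SD, n = 3) and 304.5 ± 40.3 (SD, n = 4) normalized counts in 3xCR and GPC6 tumors (log2 fold change 0.064, limma adjusted p = 0.937). Prkacb, a catalytic subunit of protein kinase A, which marks Gli proteins for processing, had the highest mean normalized count over the 7 libraries (without correction for length) and the largest increase of the list, a log2 fold change of 0.63 (limma adjusted p = 0.730). Its normalized counts were 1561, 1297 and 1521 in the 3xCR and 4861, 1424, 2428 and 1537 in the GPC6 tumors. GPC6 replicate 1 was highest, and GPC6 replicates 2 and 4 lay within the 3xCR range.

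Of 6 further target genes of Gli factors tested, 5 were lower by mean log2 value in GPC6 tumors, and their median log2 fold change was -0.38. Ccnd2, a D-type cyclin that drives entry into the cell cycle, had 3652, 2770 and 4029 normalized counts in the 3xCR tumors and 804, 3534, 1360 and 1183 in the GPC6 tumors. GPC6 replicate 2 lay within the 3xCR range and the other GPC6 tumors below it (log2 fold change -1.23, standard error 0.47, limma adjusted p = 0.730; exact permutation p = 0.114). Ccnd1, the related cyclin of highest level in the list, had a log2 fold change of -1.08 (limma adjusted p = 0.730), and its lowest value, 1298, was in GPC6 replicate 1, the library with the lowest proliferation markers. Mycn was the 1 gene of the list with a higher mean log2 value, at a log2 fold change of 0.44 (limma adjusted p = 0.777). Nkx6-1 was listed at 0 in all 7 libraries. These cyclins respond to many signals besides Hedgehog.

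Genes that build and serve the primary cilium, where the Hedgehog signal is read, were higher by mean log2 value in 7 of 8 in GPC6 tumors, with a median log2 fold change of 0.50. None passed an unadjusted p of 0.05. Dync2h1, the heavy chain of the motor that carries cargo back along the cilium, had 125.0, 117 and 108 normalized counts in the 3xCR tumors and 314, 150.2, 203 and 149 in the GPC6 tumors (log2 fold change 0.73, standard error 0.32, limma adjusted p = 0.730). Ift122, a subunit of the transport trains that this motor carries, had 235, 244 and 175 and then 374, 257, 323 and 307 (log2 fold change 0.53, standard error 0.24, limma adjusted p = 0.730). In these 2 genes every GPC6 tumor lay above every 3xCR tumor. They were the 2 of the 37 other pathway genes tested with higher values without overlap, beside 2.80% of all genes. Kif3a, a subunit of the forward motor and the most abundant of the list, had a log2 fold change of 0.65 (limma adjusted p = 0.730), and Arl13b, a small GTPase of the ciliary membrane, was the 1 gene with a lower mean log2 value (log2 fold change -0.13, limma adjusted p = 0.896). Ependymal markers, which belong to cells with motile cilia, summed to 699 normalized counts in GPC6 replicate 1 and 69.2 to 243 in the other GPC6 libraries, against 199.5 to 269.8 in the 3xCR libraries.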

How the data were processed

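Bulk RNA-Seq of 7 endpoint tumors was analysed, 3 of the 3xCR group (replicates 2, 3 and 4) and 4 of the GPC6 group (replicates 1 to 4), grouped by their labels. RNA was sequenced from stranded poly(A) libraries. The authors aligned reads to mm10 with STAR 2.5.0a, counted them on genes in R and deposited the counts divided by DESeq2 1.20.0 size factors, a normalized signal per gene with no correction for length. The counting rule for reads that match several genes was not given in the sources used here. The 25 entries whose names had become dates (between 0.254% and 0.361% of all reads) were left out. Whole reads were recovered from the values, of which 100% were within 0.01 of a whole number.

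Groups were tested with limma 3.58.1 (R 4.3.3), with a variance trend, on log2(normalized count + 1) of genes averaging at least 10. It was chosen since the deposited values were already normalized. The fit was tested on simulated data whose spread between libraries was capped, so genes of wider spread were not covered. The pseudocount makes fold changes of low genes too small. edgeR 4.0.16, DESeq2 1.42.0 and voom were run on recovered reads (limits of depth are given with the results). Of the 24 fits across genes, 23 were alternatives: pseudocount, filter, scaling, variance model, library weights, test, libraries left out, replicate block and a neuronal covariate. P-values measure the spread between tumors, since each library came from a separate brain. Single values and correlations were compared with exact permutation tests. Coordinates and exon lengths are from GENCODE M21 (GRCm38, the same assembly as mm10), which matched 95.8% of the genes by symbol, and promoters from RefSeq.

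The members and gene lists were chosen with earlier results of these data known. Besides the 9 members, the genes named are Gpc6, the highest and the most changed genes of each pathway list, those at an unadjusted p under 0.05 or without overlap, and the 3 genes nearest in pattern to Shh, Ptch1 and Gli1. Sufu, Ihh, Scube2, Nkx6-1, Avp, Oxt and the single astrocyte and microglia markers were named after their values were seen. Some items withheld for evaluation are not reported here.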

Additional observations from a re-analysis of the deposited data

Results flagged for a closer look

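Among the 4 GPC6 libraries, 1 of 62 quantities had a value whose gap to its nearest neighbour, relative to the range of the 4, exceeded Dixon's 95% limit for 4 values (0.835 in this case), where chance gives about 3.1. This quantity was the score of the proliferation markers, which was -3.07 in GPC6 replicate 1, 0.41 to 1.10 in the other GPC6 libraries and -0.21 to 1.06 in the 3xCR libraries. None of the 9 Hedgehog genes met this limit on the log2 scale, although 8 of them were highest in the same library. The share of all genes highest in that library was not counted. Groups of 3, such as 3xCR, are too small for it.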

How the results depend on the processing

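Under the 23 alternatives, no Hedgehog gene that had an adjusted p passed 0.05 except with library weights (a filter at a mean of 50 tested 6 of the 9, and DESeq2 gave no adjusted p to 7). With library weights 1 (Shh) passed adjustment, as did 1962 of the 14782 genes tested. In that fit 5 of the 9 had an unadjusted p under 0.05, beside 5105 of all 14782 genes, so these 5 cannot be read as particular to the Hedgehog genes. DESeq2 called 9 genes, with 1 of the 9 Hedgehog genes at an unadjusted p under 0.05, beside 1793 of all 14782 genes. Without GPC6 replicates 1 and 2 together 1 of the 9 (Hhip) was below it, beside 902 of all 14782. Leaving out 1 library at a time gave 0 to 0 genes and 0 to 0 Hedgehog genes at an adjusted p under 0.05. At an unadjusted p under 0.05 it gave 0 to 1 Hedgehog genes. The 1 was Shh without GPC6 replicate 4, a fit in which 1159 of all 14782 genes were under this threshold.

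The median log2 fold change of the 9, 0.18, was -0.079 to 0.52 with 1 library left out, and it turned to -0.12 with a filter at a mean of 50, which leaves out Shh, Gli1 and Gli2, and to -0.61 with the neuronal score as a covariate. Shh, Ptch1 and Hhip kept their direction in every alternative that tested them. Smo turned to 0.048 with edgeR and TMM, 0.062 with edgeR and the deposited size factors, 0.071 with DESeq2 and 0.61 without GPC6 replicates 1 and 2 together, and Gli1 to -0.035 in the last of these. Cdon turned to 0.022, 0.028 and 0.041 in the same 3 count tests and to 0.11 with library weights. With the neuronal covariate Boc was -0.64, Gli1 -0.075 and Gli2 -0.73. With 1 library left out the ranges were -0.35 to 0.25 for Smo, -0.088 to 0.52 for Boc, -0.58 to 0.16 for Cdon, -0.018 to 1.28 for Gli1, -0.079 to 0.62 for Gli2 and -0.48 to 0.13 for Gli3. The causes were not tested.

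The labels did not say whether the replicate numbers pair the samples, and the values below do not settle it. Libraries with the same number had deviations from their group means that correlated across genes with r of -0.19, 0.12 and 0.30 for numbers 2, 3 and 4. The 2 libraries numbered 4 correlated best with each other, whereas 3xCR replicate 2 correlated best with GPC6 replicate 1 (0.50). With the number as a replicate block, 0 genes and 0 Hedgehog genes passed, the median of the 9 was -0.079, and Smo was 0.061, Boc -0.088, Gli1 -0.018 and Gli2 -0.079, as without GPC6 replicate 1, whose number has no partner.

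Without the 2 libraries farthest from the median, r was 0.61 for Shh and Ptch1, -0.43 for Shh and Gli1, -0.23 for Gli1 and Hhip and 0.59 for Gpc6 and Gli1. The depth limits Shh and Gli1 most, with 1 to 36 reads per library.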
